A study of Mus musculus with 60 samples.

Results

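Klf1, Gata1, Gfi1b, Epor, Tfrc, Slc4a1, Ermap and Rhag are 8 genes used by the cells that make red blood cells. Their members on the arrays were all probe sets whose gene symbol or alias, in the annotation of either array, is one of these names. This gave 15 of 45101 probe sets and 8 of 18193 named genes. Of the 15, 12 passed a filter on low signal and were tested, and 3 were Tfrc control probe sets, which are described but were left out of the tests. Each gene is given by its lead probe set, the one with the highest mean signal over all mice.

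Transcripts were measured in unfractionated spleen leukocytes of female mice of 3 strains, NOD, NON and C57BL/6 (C57), at 2 and 4 weeks of age, with 5 mice in each of the 6 groups and 30 mice in all. The NOD (non-obese diabetic) mouse is a model of autoimmune diabetes, NON shares much of its ancestry with NOD but does not develop the disease, and C57BL/6 is a control strain further removed from both. The mice were untreated and the cells were not cultured. Each mouse has an MOE430A and an MOE430B array. Values are array signals, which have no absolute unit, so the level of 1 gene is not set against that of another. The lead probe sets of all members except Gfi1b gave a signal above 50 in all 30 mice. That is the limit of the filter, not a background level, and no detection calls were used.

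Red blood cells arise from dividing precursors, and in young mice the spleen is 1 of the tissues where this takes place. The transcription factors Gata1, Klf1 and Gfi1b direct the program, Gata1 through sites with the core GATA and Klf1 through CACCC boxes. The precursors depend on erythropoietin, read by its receptor Epor, and on iron, taken up as transferrin through the receptor Tfrc. They then fill their membrane with proteins such as the anion exchanger Slc4a1 (band 3), the Rh-associated glycoprotein Rhag and Ermap, a membrane protein of the immunoglobulin superfamily that carries a blood group.

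The promoters of the 6 genes that held a GATA site or a CACCC box are printed to show where it lies. A link between these sites and the levels of the genes was not tested. Both Tfrc promoters held neither site and are not printed, and no promoter was found for Slc4a1 in the table used. The sequences are from RefSeq, build GRCm38.p6, 250 bases directly upstream of the annotated start, 5′ to 3′ on the gene's strand, and capitals mark matches to a GATA site or to a CACCC box. A GATA site was taken as AGATAA, or as TGATAA, or with a final G as AGATAG, or likewise as TGATAG, and a CACCC box as CACACCC, or with a G inside as CACGCCC, each searched on both strands.
Klf1 (chr8:84901732-84901981, plus strand): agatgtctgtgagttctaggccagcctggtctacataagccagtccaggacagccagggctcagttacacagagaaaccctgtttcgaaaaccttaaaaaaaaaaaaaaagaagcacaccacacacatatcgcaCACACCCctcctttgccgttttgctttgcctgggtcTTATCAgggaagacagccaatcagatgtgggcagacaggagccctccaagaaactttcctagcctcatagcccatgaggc
Gata1 (chrX:7967911-7968160, minus strand): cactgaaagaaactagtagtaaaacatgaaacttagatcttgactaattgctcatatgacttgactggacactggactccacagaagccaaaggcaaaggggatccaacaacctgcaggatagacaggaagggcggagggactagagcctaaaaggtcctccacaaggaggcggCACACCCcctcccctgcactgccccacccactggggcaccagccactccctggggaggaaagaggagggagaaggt
Gfi1b (chr2:28621983-28622232, minus strand): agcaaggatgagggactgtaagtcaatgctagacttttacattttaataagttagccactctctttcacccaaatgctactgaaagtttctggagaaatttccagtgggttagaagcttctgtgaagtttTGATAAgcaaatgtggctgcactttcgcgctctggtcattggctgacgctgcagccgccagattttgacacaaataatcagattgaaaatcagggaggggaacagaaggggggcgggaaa
Epor (chr9:21963577-21963826, minus strand): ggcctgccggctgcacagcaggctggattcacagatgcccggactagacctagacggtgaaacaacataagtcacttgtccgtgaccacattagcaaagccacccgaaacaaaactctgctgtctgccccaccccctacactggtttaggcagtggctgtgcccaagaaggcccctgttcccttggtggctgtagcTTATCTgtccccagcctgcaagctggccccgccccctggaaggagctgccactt
Ermap (chr4:119189996-119190245, minus strand): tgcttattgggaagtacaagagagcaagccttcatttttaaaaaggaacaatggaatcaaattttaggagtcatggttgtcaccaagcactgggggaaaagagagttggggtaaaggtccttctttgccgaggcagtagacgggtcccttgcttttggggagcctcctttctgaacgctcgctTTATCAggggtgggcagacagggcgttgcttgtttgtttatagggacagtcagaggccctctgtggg
Rhag (chr17:40810899-40811148, plus strand): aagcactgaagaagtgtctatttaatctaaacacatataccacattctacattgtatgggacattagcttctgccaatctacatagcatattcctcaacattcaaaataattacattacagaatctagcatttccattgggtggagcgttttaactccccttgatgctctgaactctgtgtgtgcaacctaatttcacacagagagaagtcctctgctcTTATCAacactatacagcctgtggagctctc

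The RefSeq table held 8 promoters for 7 of the genes, with 2 starts for Tfrc. In the window from 250 bases before to 50 bases after the start, 5 of these 8 held a GATA site, against 29.8% of all 32851 promoters, and 2 held a CACCC box, against 15.5%. The GATA sites lay 80 bases upstream of the start in Klf1, 120 in Gfi1b, 54 in Epor, 67 in Ermap and 31 in Rhag. The CACCC boxes lay 116 bases upstream in Klf1 and 76 in Gata1. Klf1 was the only 1 of the 8 promoters with both, as were 3.3% of all promoters, and no match overlapped another. These matches describe the letters and were not tested for binding.

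Some facts of the whole data set bear on what follows. The ratio of the 3′ to the 5′ signal of the control transcript Gapdh, a sign of RNA quality, lay between 0.744 and 4.00 over the 30 mice and was over 2 in 5 of them, namely NON replicate 2 of 2 weeks, NON replicates 1 and 5 of 4 weeks, C57 replicate 5 of 2 weeks and C57 replicate 4 of 4 weeks. NOD replicate 3 of 4 weeks had a median correlation of 0.739 with the other mice of its group, while that of every other mouse was at least 0.824. Results without the 5 mice of high ratio are given for some tests of Klf1, Gfi1b and Gata1, for age changes whose sign turned and for counts of calls. They are not given for strain differences of the other members or for genes of the lists.

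In tests of pairs of groups, Klf1 and Gfi1b were higher in NON than in C57 spleen at 2 weeks. In NON mice Gfi1b fell between 2 and 4 weeks by such a test. No other member passed one in any comparison of strains or ages. The test over all 3 strains, planned to come first, passed neither Klf1 nor Gfi1b at 2 weeks (limma's F test, adjusted p = 0.057 and 0.068). Each of these results was also lost when certain single mice were left out. The samples are bulk tissue, so a difference in the number of erythroid cells and a difference in RNA per cell cannot be told apart.

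Klf1, the activator of globin and other red cell genes, had signals of 822, 592, 1541, 1605 and 3128 in the 5 NON mice of 2 weeks. In C57 mice of that age the signals were 288, 237, 163, 289 and 375. Every NON mouse lay above every C57 mouse, and NON replicate 5 stood highest of all 30. The ratio of the mean signals was 5.69, and the difference was 2.28 ± 0.48 (SE, n = 5 and 5) on the log2(signal + 10) scale, with an adjusted p of 0.027 by limma's moderated test. NOD mice of 2 weeks gave 174, 640, 1257, 649 and 572, a range that overlapped both other strains. The NOD mean was 2.43 times that of C57 (adjusted p = 0.41) and differed from that of NON by −1.22 ± 0.48 on the log2 scale (adjusted p = 0.43). The Klf1 call was lost when any 1 of 7 mice was left out, namely NON replicates 3, 4 and 5 and C57 replicates 1, 2, 3 and 4, with adjusted p-values up to 0.080. Without the 5 mice of high Gapdh ratio it was kept.

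Gfi1b, a repressor that erythroid and platelet-forming cells both need, had signals of 142, 139, 208, 244 and 624 in NON mice of 2 weeks. At 4 weeks the NON mice gave 57.2, 8.5, 21.7, 129 and 10.7. The age groups did not overlap, which held for 1.83% of all tested probe sets in this direction. The mean signal was 271 ± 202 (SD) at 2 weeks and 45.5 ± 50.8 at 4 weeks, and the level fell by 2.55 ± 0.58 (SE, n = 5 and 5) on the log2 scale (limma, adjusted p = 0.022). This call was lost, with adjusted p-values of 0.080 to 0.104, when NON replicate 5 of 2 weeks or NON replicate 2 or 5 of 4 weeks was left out, and was 0.14 without the 5 mice of high Gapdh ratio and 0.15 when only the 10 NON mice were fitted.

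In C57 mice of 2 weeks Gfi1b had signals of 63, 79.6, 12, 13.4 and 14.4. All 5 NON mice of that age lay above them. The NON mean was 7.44 times the C57 mean, a difference of 2.65 ± 0.58 (SE, n = 5 and 5) on the log2 scale (limma, adjusted p = 0.033). Gfi1b was under a signal of 50 in 13 of the 30 mice, 8 of them C57 and 3 of them NON mice of 4 weeks, so these ratios rest on low signals. The adjusted p was 0.066 without the 5 mice of high Gapdh ratio and 0.054 with that ratio as a covariate, and the call was lost without NON replicate 3, 4 or 5 or C57 replicate 3, 4 or 5 of 2 weeks. NOD mice gave 16.6, 87.1, 184, 134 and 162 at 2 weeks and 121, 170, 25.3, 57.1 and 55.1 at 4 weeks, and these ranges overlapped each other. The NOD mean lay between those of NON and C57 at 2 weeks and above both at 4 weeks (NOD less NON 1.00 ± 0.54 on the log2 scale, adjusted p = 0.53).

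Gata1, the factor on which erythroid differentiation depends, showed the same order but did not pass the test. Its signals in NON mice of 2 weeks were 344, 263, 558, 482 and 1245. Those in C57 mice of 2 weeks were 185, 156, 157, 208 and 205. The groups did not overlap, and the difference was 1.41 ± 0.34 (SE, n = 5 and 5) on the log2 scale, with an adjusted p of 0.052. It passed without the 5 mice of high Gapdh ratio, at 0.036. Between 2 and 4 weeks in NON mice the mean signal went from 578 ± 390 (SD) to 238 ± 83.9, a log2 change of −1.10 ± 0.37 (adjusted p = 0.15).

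**Figure D1:**
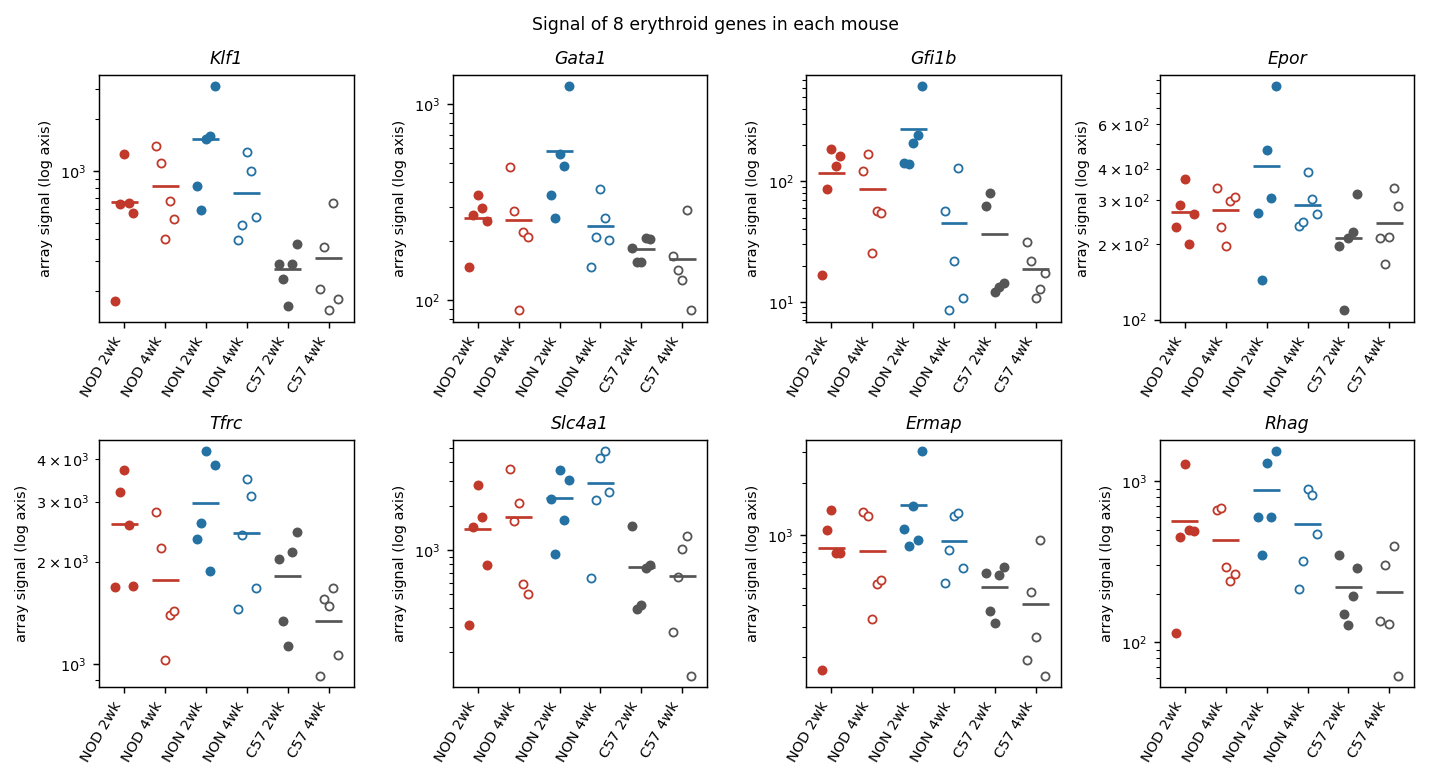
Array signal of the lead probe set of each gene (log axis) in every mouse, by group. Filled points are mice of 2 weeks and open points mice of 4 weeks, lines are group means (n = 5), red is NOD, blue NON and grey C57. The 5 NON mice of 2 weeks lie above all 5 C57 mice of that age for Klf1, Gata1, Gfi1b, Ermap and Rhag.

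Neither receptor passed the test in any comparison. Epor had signals of 267, 143, 472, 304 and 855 in NON mice of 2 weeks. In C57 mice of that age they were 196, 109, 212, 224 and 316. The groups overlapped, with NON replicate 5 far above the rest, and the difference was 0.75 ± 0.38 on the log2 scale (adjusted p = 0.41, 95% interval −0.07 to 1.57). At 4 weeks the 15 mice lay between 167 and 386.

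Tfrc, which dividing cells of other kinds also carry, ranged from 925 to 4219 over the 30 mice in its lead probe set. The NON mice of 2 weeks gave 2325, 2594, 4219, 1872 and 3839. The C57 mice of 2 weeks gave 2038, 1338, 1134, 2139 and 2449. These groups overlapped, and the difference was 0.70 ± 0.31 on the log2 scale (adjusted p = 0.33). Its log2 change from 2 to 4 weeks was −0.56 in NOD, −0.30 in NON and −0.42 in C57, with adjusted p-values of 0.64, 0.76 and 0.93, and in NON the sign turned without the 5 mice of high Gapdh ratio. Its other 2 tested probe sets changed by −1.33 and −1.34 in NOD, −1.21 and −1.38 in NON and −0.09 and −0.38 in C57, with adjusted p-values of 0.28 or more.

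Of the membrane proteins, the lead probe sets of Ermap and Rhag separated NON from C57 at 2 weeks and that of Slc4a1 did not. Ermap gave 1094, 865, 1484, 936 and 3043 in NON mice of 2 weeks. It gave 609, 367, 316, 593 and 660 in C57 mice of 2 weeks, all below NON (log2 difference 1.42 ± 0.49, adjusted p = 0.19). Rhag gave 603, 348, 1298, 601 and 1537 in NON mice and 348, 151, 129, 193 and 288 in C57 mice of that age. The lowest NON mouse, at 348.0, and the highest C57 mouse, at 347.5, nearly met, and the log2 difference was 1.83 ± 0.53 (adjusted p = 0.11).

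Slc4a1 was the 1 gene with its highest mean in NON mice of 4 weeks, where the signals were 646, 2203, 4251, 4776 and 2505. In C57 mice of 4 weeks they were 275, 653, 1016, 1258 and 138. Only NON replicate 1 fell among the C57 mice; its Gapdh ratio was 3.15. The difference was 2.20 ± 0.70 (SE, n = 5 and 5) on the log2 scale, with an adjusted p of 0.25 and a 95% interval of 0.70 to 3.70. The lead probe set of Slc4a1 is of the type whose probes can match other transcripts, but a second probe set correlated with it at r = 0.96 over the 30 mice and differed at 4 weeks by 2.07. At 2 weeks this other probe set did separate the strains, with 994.3 in the lowest NON mouse and 804.6 in the highest C57 mouse (log2 difference 1.79, adjusted p = 0.16). The remaining probe set was too dim to compare at 4 weeks, with signals of at most 46.3 in NON and 52.2 in C57 mice. Its highest mean was instead in NON mice of 2 weeks, at 113, with 363 in the highest mouse. The C57 mean at 2 weeks was 26.9 (log2 difference 1.44, limma, adjusted p = 0.41). Its age change in NON was −1.16 (limma, adjusted p = 0.48), where that of the lead was 0.20.

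Read across the genes, the order of the strains was alike. At 2 weeks all 8 lead probe sets were higher in NON than in C57, with a median log2 difference of 1.49 (range 0.70 to 2.65), against a median of 0.03 over all 38293 tested probe sets. By limma 2 of the 8 were called, where 1.56% of all probe sets were called in either direction and 0.569% as higher in NON. Groups without overlap, NON above C57, were seen for 5 of the 8 genes and for 1.97% of all probe sets. At 4 weeks the 8 were again higher in NON than in C57 (median 1.05, range 0.25 to 2.20). None was called (0.794% of all probe sets were). Of the 8, 5 had an unadjusted p under 0.05, as did 3719 of 38293 probe sets.

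NOD lay between the control strains at 2 weeks: all 8 were higher than in C57 (median 0.60, 0 called, 2 at an unadjusted p under 0.05; 0.841% of all probe sets called) and all 8 lower than in NON (median −0.90, 0 called, 2 unadjusted; 0.546% of all called). At 4 weeks NOD was above C57 for all 8 (median 1.11, 0 called, 4 unadjusted; 1.13% of all called) and below NON for 6 (median −0.17, 0 called, 0 unadjusted; 0.582% of all called). Of all 38293 probe sets, 4462 had an unadjusted p under 0.05 for NOD against C57 at 2 weeks and 3619 for NOD against NON. At 4 weeks these numbers were 4959 and 4116. These comparisons share their mice, and the genes share theirs, so the 8 are not separate pieces of evidence.

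The tests over all 3 strains at once, as in the methods of the study, called no member. At 2 weeks limma's F test called 0 of 12 member probe sets, where 1.66% of all were called; 6 of the 8 lead probe sets had an unadjusted p under 0.05, as did 5402 of 38293 probe sets, and the lowest adjusted p was 0.057, for Klf1. At 4 weeks it called 0 of 12 (1.51% of all), with a lowest adjusted p of 0.21. Of the 8, 5 had an unadjusted p under 0.05, as did 5122 of 38293 probe sets. The methods' one-way test with Benjamini-Hochberg adjustment also called 0 at each age. The count at 2 weeks was not stable: it was 3 without NON replicate 2 of 2 weeks, the mouse with the highest Gapdh ratio, and 2 with all 30 mice in 1 model.

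Between ages, 1 member passed the test, in 1 strain. In NOD mice 0 of 12 member probe sets were called between 2 and 4 weeks (0.146% of all were) and 0 of the 8 genes had an unadjusted p under 0.05; the log2 changes ran from −0.56 for Tfrc to 0.41 for Klf1. In C57 mice 0 of 12 were called (0.46% of all), again with 0 at an unadjusted p under 0.05, and the changes ran from −0.57 to 0.22. In NON mice 1 of 12 was called, Gfi1b (1.46% of all probe sets were called, and 0.65% as lower at 4 weeks), 2 of the 8 genes had an unadjusted p under 0.05, and 7 of the 8 were lower at 4 weeks, with a median of −0.63 against 0.00 over all probe sets. An unadjusted p under 0.05 was seen for 3409 of 38293 probe sets in NOD, 2564 in C57 and 4962 in NON. The intervals were wide: for Klf1 in NOD the 95% interval of the change was −0.59 to 1.40.

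Whether the age change differed between strains was tested directly. No member passed (limma, 0 of 12, where 0.00261% of all probe sets did). Of the 8, 1 had an unadjusted p under 0.05, as did 2642 of 38293 probe sets. For Gfi1b the change in NON less that in NOD was −2.20 ± 0.82 on the log2 scale (adjusted p = 0.50), and less that in C57 it was −2.10 ± 0.82 (adjusted p = 0.70). The fall of Gfi1b in NON is therefore not shown to differ from the changes in the other strains.

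**Figure D2:**
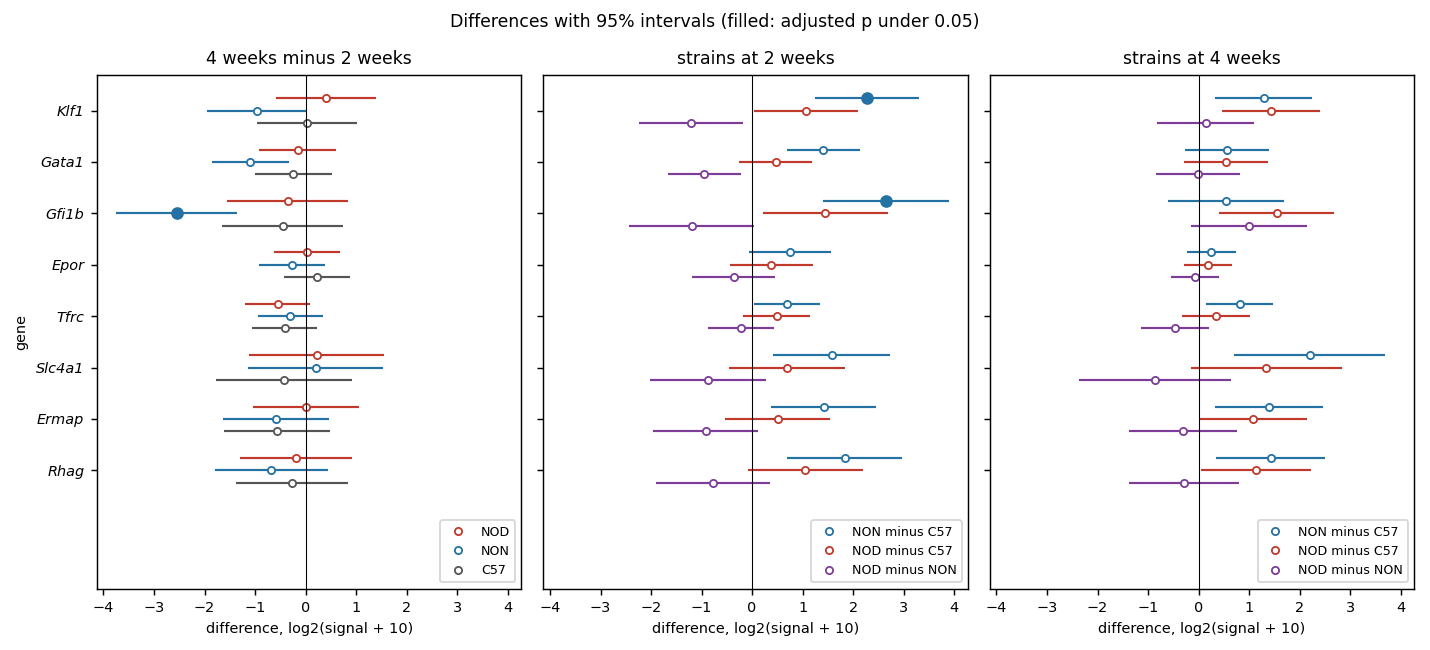
Difference of each gene on the log2(signal + 10) scale with its 95% interval, for age (left) and strain at 2 weeks (middle) and 4 weeks (right), n = 5 mice a group. Filled points passed an adjusted p of 0.05 by limma: Gfi1b with age in NON, and Klf1 and Gfi1b between NON and C57 at 2 weeks; all NON minus C57 and NOD minus C57 points lie to the right of 0.

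In the order of the 6 group means, NON mice of 2 weeks stood first for 7 genes and NON mice of 4 weeks for Slc4a1. A C57 group was last for all 8. Each group overlapped the next in the order for every gene, so no neighbours can be told apart by range. For Klf1 the means were 1538 (NON 2 weeks), 821 (NOD 4 weeks), 742 (NON 4 weeks), 658 (NOD 2 weeks), 310 (C57 4 weeks) and 270 (C57 2 weeks).

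Mice of a single group differed widely. For Gfi1b 40.3% of the spread over all mice lay within groups, and for Epor 79.7%, with the other genes between and a median of 78.6% over all tested probe sets. On the log2 scale the within-group SD was 1.08 for Slc4a1 and 0.50 for Tfrc, against a median of 0.56 over all probe sets.

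The spread was shared by the genes. For the 28 pairs of genes, Pearson's r over the 30 mice ran from 0.37 to 0.94 (median 0.74) and Spearman's rho from 0.24 to 0.94. By a two-sided permutation test with 100000 resamples and Benjamini-Hochberg adjustment over the 28 pairs, r passed 0.05 for 28 pairs (highest adjusted p = 0.046) and rho for 26. After group means were removed, with mice permuted within groups only, 25 of the 28 passed and r ran from 0.17 to 0.92. With the pair of mice farthest from the median of 1 gene left out, r was 0.11 to 0.92. Rhag and Ermap were the closest pair (r = 0.94), and Gfi1b and Epor the least close (r = 0.37, and 0.11 without those mice). These are the same 30 RNA samples, so quality and array scale are shared by the points too. Across mice each gene's own r with the Gapdh ratio lay between −0.37 for Gfi1b and −0.04 for Ermap. The matching rho lay between −0.50 for Gfi1b and −0.065 for Slc4a1.

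Seen by mouse, NON replicate 5 of 2 weeks was the highest of its group for 6 genes and had the highest mean over the 8 genes of all mice, 2.21 SD above the gene means. NOD replicate 3 of 2 weeks was the highest of its group for 8 of 8 genes, and NOD replicate 1 of 2 weeks the lowest for 7. NON replicate 2 of 2 weeks, with a Gapdh ratio of 4.00, was the lowest of its group for 7 genes, and NON replicate 1 of 4 weeks, with a ratio of 3.15, likewise for 7. C57 replicate 4 of 4 weeks, with a ratio of 2.40, was instead the highest of its group for 7. The lowest mean of all was that of C57 replicate 5 of 4 weeks, −1.49 SD.

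**Figure D3:**
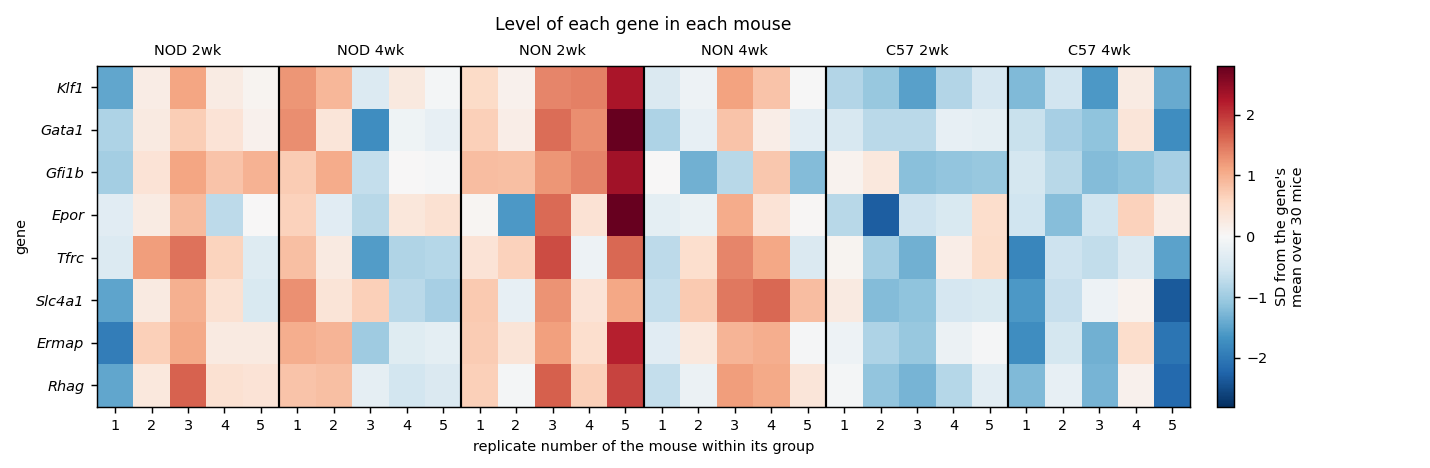
Level of each gene (rows) in each of the 30 mice (columns, by group and replicate number), as SDs from the gene's mean over all mice on the log2(signal + 10) scale. Red is above and blue below the mean; columns tend to be of 1 colour, with NON replicate 5 of 2 weeks highest (mean 2.21) and C57 replicate 5 of 4 weeks lowest (mean −1.49).

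Genes whose pattern was most like the mean of the 8 were sought among all tested probe sets, and since they were chosen for likeness no test is given. The 10 closest over the 30 mice were Rhd (r = 0.96), which encodes the Rh protein that pairs with Rhag, Tal1, a transcription factor that works in a complex with Gata1, then Tspan33, Cldn13, Abcb10, a mitochondrial transporter of erythroid cells, Ubac1, Aqp1, the water channel of red cells, Prdx2, a peroxidase abundant in red cells, Gstm5 and Hemgn, a nuclear protein of blood-forming cells (r = 0.94). Over all tested probe sets the median r was 0.03 and 3.52% exceeded 0.5. Klf1 alone was closest to Gstm5 (r = 0.95), Gata1 to Aqp1 (0.92), Slc4a1 to Hemgn (0.89), Tfrc to Rhd (0.86), Ermap to Tspan33 (0.95) and Rhag to Tal1 (0.96). Gfi1b and Epor had other nearest genes, Bex4 (0.85) and Sh3tc2 (0.85).

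Other genes of the red cell program were read from lists. Of 13 tested genes of the red cell membrane and its skeleton, all were higher in NON than in C57 at 2 weeks (median log2 difference 1.25), and 3 were called: Tspan33 (2.09, adjusted p = 0.0195), Rhd (1.91, adjusted p = 0.027) and Aqp1 (2.02, adjusted p = 0.041). Of 11 genes of heme synthesis, all were higher (median 1.14), and 2 were called: Alad, the second enzyme of the pathway (3.22, adjusted p = 0.00046), and Urod, a later enzyme (1.17, adjusted p = 0.047). Alad was also called at 4 weeks (2.11, adjusted p = 0.029). Of 7 late red cell enzymes and chaperones, 6 were higher (median 1.34), and 2 were called: carbonic anhydrase Car1 (1.72, adjusted p = 0.018) and Prdx2 (1.34, adjusted p = 0.036). Of all probe sets 0.569% were called as higher in NON than in C57 at 2 weeks. The 7 called genes, and Tmem14c, were named after their values were seen. In NOD, 1 gene of these lists was called against NON, Tmem14c of heme synthesis, a mitochondrial membrane protein, which was lower at 2 weeks (−3.52 ± 0.27, adjusted p = 3.3e-06) and at 4 weeks (−3.05 ± 0.26, adjusted p = 1.6e-05). Against C57 it was lower too (−2.64, adjusted p = 6.6e-05, and −2.62, adjusted p = 7.1e-05), and Car1 was higher in NOD than in C57 at 2 weeks (1.63, adjusted p = 0.033). None of these lists had a called age change in NON, where the medians were −0.52, −0.26 and −0.33.

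Of 12 erythroid regulators and partners 0 were called between NON and C57 at 2 weeks (median 0.16), with 9 higher in NON and 3 lower. Tal1, named because it had the smallest adjusted p of the 12 in this comparison, differed by 1.38 (adjusted p = 0.095). With age, Nfe2, a factor of late erythroid cells and platelet-forming cells, fell in NON by 0.91 (adjusted p = 0.041) and in C57 by 1.09 (adjusted p = 0.021), and Myb, a factor of blood precursors, fell by 1.02 (adjusted p = 0.048) and 1.48 (adjusted p = 0.0051). In NOD the change of Nfe2 was −0.51 (adjusted p = 0.51) and that of Myb −1.06 (adjusted p = 0.12), and whether these differ from the other strains did not pass the test (adjusted p = 0.83 and 0.89). For the NON calls of Nfe2 and Myb, results without the mice of high Gapdh ratio are not given. Over all probe sets 1.46% were called with age in NON, and 0.131% without those mice. Of 9 genes of erythropoietin signalling and 7 of iron uptake and storage, 0 were called in any of the age or NON against C57 comparisons. Of 9 globin genes 6 had a probe set annotated to that gene alone, 4 of these were tested and 0 were called; their summed signal was 172 to 1593 a mouse, and probe sets shared by several globin genes were not used here.

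**Figure D4:**
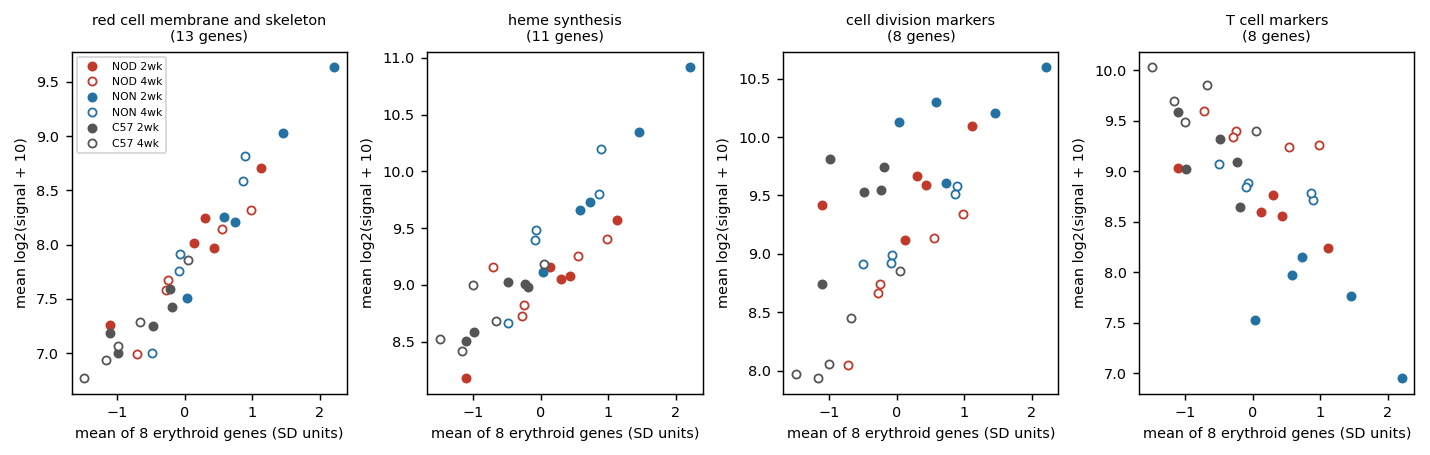
Mean log2(signal + 10) of 4 gene lists (vertical axes) against the mean of the 8 erythroid genes (SD units) in each mouse, n = 30; red is NOD, blue NON and grey C57, filled points 2 weeks, open points 4 weeks. The red cell membrane and heme synthesis lists were high in mice where the 8 genes were high (r = 0.97 and 0.90), as were the cell division markers (r = 0.72), and the T cell markers were low there (r = −0.77). Red cell lists not drawn varied in this. For late enzymes and chaperones r was 0.92, and for erythroid regulators and partners 0.76. For iron uptake and storage r was 0.63, for globin genes 0.41 and for erythropoietin signalling 0.08. These are r of list means. The median r of single genes was 0.81 for the red cell membrane, 0.73 for heme synthesis and 0.82 for late enzymes and chaperones. It was 0.29 for erythroid regulators and partners, 0.44 for iron and 0.11 for globin genes.

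Markers of other cells moved with the same comparison. At 2 weeks 8 of 8 T cell markers were lower in NON than in C57 (median −1.32), and 4 were called. For B cell markers 7 of 7 were lower (median −0.53) and 0 were called. Of all 38293 tested probe sets, 379 were called as lower in NON in this comparison and 218 as higher. For 2.44% of them every NON mouse lay below every C57 mouse. The summed signal of the T cell markers was 1051 to 2568 in NON mice of 2 weeks and 3888 to 8028 in C57 mice of 2 weeks, with no overlap, and that of the B cell markers 11853 to 26997 and 26603 to 35179. With age in NON mice 8 of 8 T cell markers rose and 6 were called, and 7 of 7 B cell markers rose and 3 were called. Cell division markers fell with age in NON (8 of 8, 3 called), in C57 (8 of 8, 3 called) and in NOD (8 of 8, 0 called). Of all probe sets 1.46% were called with age in NON, 0.46% in C57 and 0.146% in NOD. The share in NON was 0.131% without the mice of high Gapdh ratio and 0.0601% when only the NON mice were fitted. Results in these settings are not given for the marker genes, so their NON age calls hold for the main setting only. Of 9 megakaryocyte and platelet markers, cells that also use Gfi1b and Gata1, 9 were lower at 4 weeks in NON (median −1.18) and 1 was called, Ppbp, a platelet chemokine (−2.58, adjusted p = 0.024). Their summed signal went from 1842 to 5111 in NON mice of 2 weeks to 976 to 2143 at 4 weeks. Macrophage markers were 8 of 8 higher in NON than C57 at 2 weeks (median 0.61, 0 called), precursor markers 7 of 7 (median 0.32, 0 called), and of 8 mast cell, basophil and eosinophil markers 1 was called, Il5ra, lower in NON and named after its value was seen. Signals are scaled to each array's total, and the part of these other cells in the results on the erythroid genes was not tested.

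The probe sets of Tfrc differed in their relation to the Gapdh ratio. Besides its lead probe set, 2 other, dimmer probe sets of Tfrc were tested. Their log2 difference from the lead went down as the Gapdh ratio rose (r = −0.67 and −0.56, rho = −0.75 and −0.64, n = 30, permutation test, adjusted p = 0.0001 and 0.00155 for r over the 2 relations), and still did without the pair of mice with the most extreme ratios (r = −0.57 and −0.44) and within groups (r = −0.62 and −0.57). In the NON against C57 comparison at 2 weeks they gave 1.82 (adjusted p = 0.18) and 1.36 (adjusted p = 0.21), where the lead gave 0.70. The 3 control probe sets, on each array, spanned 2.1 to 2821 in signal, and the 1 nearest the 3′ end agreed between the arrays of a mouse at r = 0.94.

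**Figure D5:**
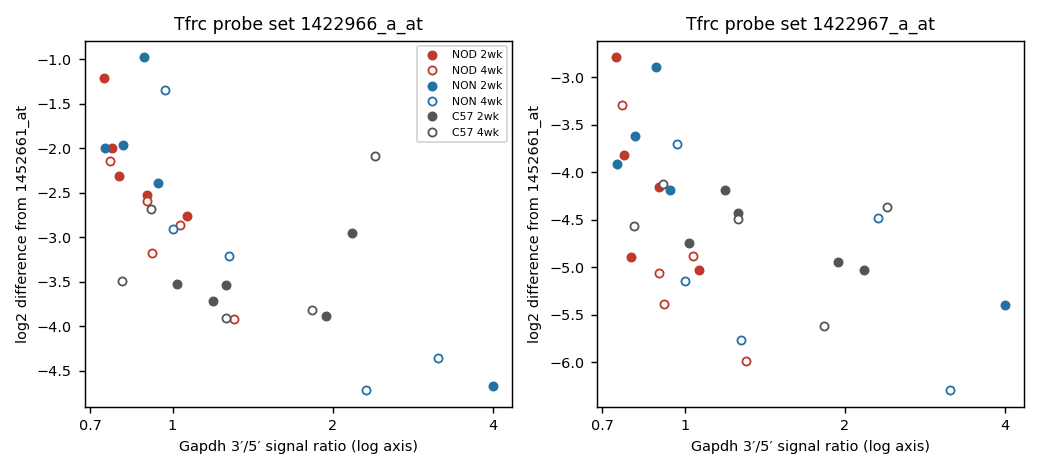
Log2 difference of the 2 other Tfrc probe sets from its lead probe set (vertical axes) against the Gapdh 3′/5′ signal ratio (log axis) in each of 30 mice, with the same colours and fills. Points go down from left to right (r = −0.67 and −0.56), with NON replicate 2 of 2 weeks, which has the highest ratio, at the far right.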

How the data were processed

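Spleen leukocyte RNA of 30 mice was hybridised to MOE430A and MOE430B arrays (60 arrays). The authors computed a signal intensity for each probe set with MAS 5.0 and scaled each array to a common trimmed mean; the methods state a target of 100, while the deposited intensities have a 2% trimmed mean of 250 on every array. No probe-level values were used, and the number of arrays, not a read depth, limits precision. Both arrays of a mouse were joined, with 64 control probe sets left out and the 430A value kept for 100 probe sets on both, giving 45037. Probe sets with a signal of at least 50 in at least 5 mice were tested (38293) on log2(signal + 10), which understates changes of low signals. limma 3.58.1 in R 4.3.3 gave moderated tests, with Benjamini-Hochberg adjustment over all of them; a call is an adjusted p under 0.05. Age changes and their differences between strains came from 1 fit of 6 groups (30 mice), strain differences from the 15 mice of each age. Fits were tested on simulated data. Probe sets were named through the platform annotation, with 34945 having 1 symbol, 932 several and 9160 none. In the text each gene stands for its lead probe set, and of each other list at most 4 genes with the smallest adjusted p of an age change were to be named, with exceptions stated. Members and lists were chosen with earlier results of these data known. Alternatives tried were pseudocounts of 1 and 50, no filter and a filter at 100, quantile normalization, a replicate block, the Gapdh ratio as covariate, other sets of mice in the fit, the methods' tests and leaving out each mouse; leaving out the 5 mice with a Gapdh ratio over 2 was added after seeing the data. The labels number the mice of each group 1 to 5; nothing in them pairs mice across groups, and p-values cover the spread between these mice. No 2 mice had identical values (highest correlation 0.924).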

Additional observations from a re-analysis of the deposited data

Results flagged for a closer look

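In 1 of 48 sets of 5 mice (8 genes in 6 groups) a single mouse stood apart from its group by Dixon's test at the 95% level. This was Ermap in NOD mice of 2 weeks, where replicate 1 gave a signal of 168.6 and the others 796 to 1391; its gap to the nearest mouse was 0.731 of the group's range on the log2 scale. The same mouse was the lowest of its group for 7 of the 8 genes. Chance alone marks about 1 in 20 such sets.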

How the results depend on the processing

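Counts are of the 12 tested member probe sets. Leaving out 1 mouse at a time gave 0 to 1 calls for the age change in NON (1 in the main setting), 0 to 3 for the strain difference at 2 weeks (0) and 0 to 4 for NON against C57 at 2 weeks (2), and 0 for age in NOD and C57, the strain difference and NON against C57 at 4 weeks, and the difference of age changes. The age change in NON had 0 calls when only the mice of that strain were fitted, by the methods' test and without the 5 mice of high Gapdh ratio. The strain difference at 2 weeks had 2 calls with a pseudocount of 50, 1 with the filter at 100, 2 with all 30 mice in 1 fit and 2 without those 5 mice. NON against C57 at 2 weeks had 1 call, Klf1, with the Gapdh ratio as covariate and 1, Klf1, with the replicate block. Correlations of same-numbered mice were −0.15 to 0.19 (median 0.037, 75 pairs, 10.7% over 0.1), against a median of −0.0092 and 3.33% over 0.1 for mice of different number (300 pairs). These values cannot settle whether the numbers pair the mice, since same-numbered pairs leaned higher but most were not over 0.1. The labels pair no mice, so the main tests did not. The replicate block, which lost the Gfi1b call for NON against C57 at 2 weeks, changed no other count of calls.

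For small age changes that were not called the sign was not settled. Ermap in NOD was −0.0016 with a pseudocount of 50 and −0.059 after quantile normalization. Without the 5 mice of high Gapdh ratio Tfrc in NON was 0.034 and Klf1 in C57 −0.15. Leaving out 1 mouse gave, in NOD, −0.42 to 0.16 for Gata1, −0.074 to 0.13 for Epor, −0.24 to 0.55 for Slc4a1, −0.48 to 0.28 for Ermap and −0.65 to 0.19 for Rhag; in NON, −0.58 to 0.045 for Epor and −0.080 to 0.66 for Slc4a1; and in C57, −0.28 to 0.22 for Klf1, −0.75 to 0.021 for Slc4a1 and −0.57 to 0.057 for Rhag. The cause was not tested.

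Across all tested probe sets the age change in NON was called for 1.46% in the main setting, 0.0601% when only that strain was fitted, 0.196% by the methods' test and 0.131% without the 5 mice of high Gapdh ratio. The number of arrays limits the precision, and Gfi1b was under a signal of 50 in 13 of 30 mice.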
